A study of Mus musculus with 24 samples.

Results

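Heme is made by a chain of enzymes that starts and ends in the mitochondrion and passes through the cytosol in between, and the iron that the last enzyme places in the ring must be carried across the inner mitochondrial membrane. The 9 genes described here are 7 enzymes of that chain and a pair of mitochondrial carriers, out of 21671 genes listed in each deposited table. They were taken by gene symbol, and all 9 symbols were found in every table. In pathway order the first is Alas2, the erythroid form of the enzyme that joins glycine and succinyl-CoA and sets the chain's rate. Next are Alad, which makes porphobilinogen, Uros, which closes the ring, and Urod and Cpox, which trim and oxidize its side chains. Ppox then oxidizes the ring itself, and Fech inserts the iron. Slc25a37 (mitoferrin 1) is the carrier that brings iron in, and Slc25a38 is a carrier that supplies glycine for the first step.

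All cells make some heme for respiratory enzymes, and developing red cells make it in bulk for hemoglobin. In the mouse, unlike in adult humans, the spleen keeps a store of developing red cells beside its lymphocytes. Alas2 is specific to the red-cell lineage, while most cells use Alas1 for the first step, so the members span a range from red-cell-restricted to general.

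RNA from splenic cells of C57/Bl6 mice aged 8 weeks was sequenced as 24 libraries in 8 groups. Mice were Trp53+/+ or Trp53-/-, the latter carrying a knockout allele, and were either mock treated or harvested 4 h after 7 Gy of whole-body ionizing radiation (IR). Each spleen preparation went through hypotonic lysis of red blood cells and was split on B220 magnetic beads, the bound cells being the B cells and the column flow-through the non-B cells. Each Trp53+/+ group had 4 libraries and each Trp53-/- group had 2. The study's methods describe RNA-Seq of 4 Trp53+/+ and 2 Trp53-/- mice per condition, which matches these numbers. The labels do not name the animal behind each library. The p-values measure the spread between libraries, which may be partly technical.

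Levels are RPKM, reads per kilobase of gene scaled to each library's reads on exons, which allows genes of different length to be compared. Estimated depth was 4730000 to 10970000 reads per library, and the Trp53+/+ irradiated B cell libraries were the shallowest as a group, at 4730000 to 7610000. The members were read 97 to 2740 times per library by this estimate, so none was near the limit of detection. Genes of olfactory and vomeronasal receptors, which serve here as silent genes, were above 0 for 5.42% to 9.31% of 1440 in mock libraries but for up to 51.32% in Trp53+/+ irradiated libraries. Cdkn1a, a p53 target that halts the cell cycle, was at 2.85 to 5.87 RPKM in Trp53+/+ mock non-B cells and 69.59 to 88.28 after IR, against 1.38 to 2.63 in all Trp53-/- non-B libraries. In B cells it went from 0.89–1.36 to 82.33–97.83 RPKM in Trp53+/+ mice and stayed at 0.56 to 0.73 in Trp53-/- mice. Trp53 itself still gave 21.59 to 25.04 RPKM in Trp53-/- mock libraries, against 43.37 to 49.54 in Trp53+/+ mock libraries.

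Ranked by mean RPKM in Trp53+/+ mock B cells, Slc25a37 was highest (49.11 ± 5.96, SD, n = 4), then Ppox (37.29 ± 3.03) and Urod (31.66 ± 2.10), and Uros (11.12 ± 2.03) and Cpox (10.40 ± 0.85) were lowest. Slc25a37 stood above Ppox in every library of that group, while each of the other neighbours in the order overlapped in range. In Trp53+/+ mock non-B cells the order began with Urod (49.20 ± 15.01), Slc25a37 (44.80 ± 13.35) and Ppox (44.69 ± 11.82) and ended again with Cpox (22.70 ± 12.39) and Uros (17.18 ± 8.50), and all neighbours overlapped. The lineage-restricted first enzyme, Alas2, was in the middle of the order in both, at 27.17 ± 8.27 in non-B and 22.53 ± 17.67 in B cells. Its spread was the widest of the 9: over the 24 libraries Alas2 ran from 5.15 to 73.09 RPKM, a 14.2-fold range. Ppox had the narrowest range, 1.9-fold, followed by Slc25a38 at 2.0-fold.

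**Figure D1:**
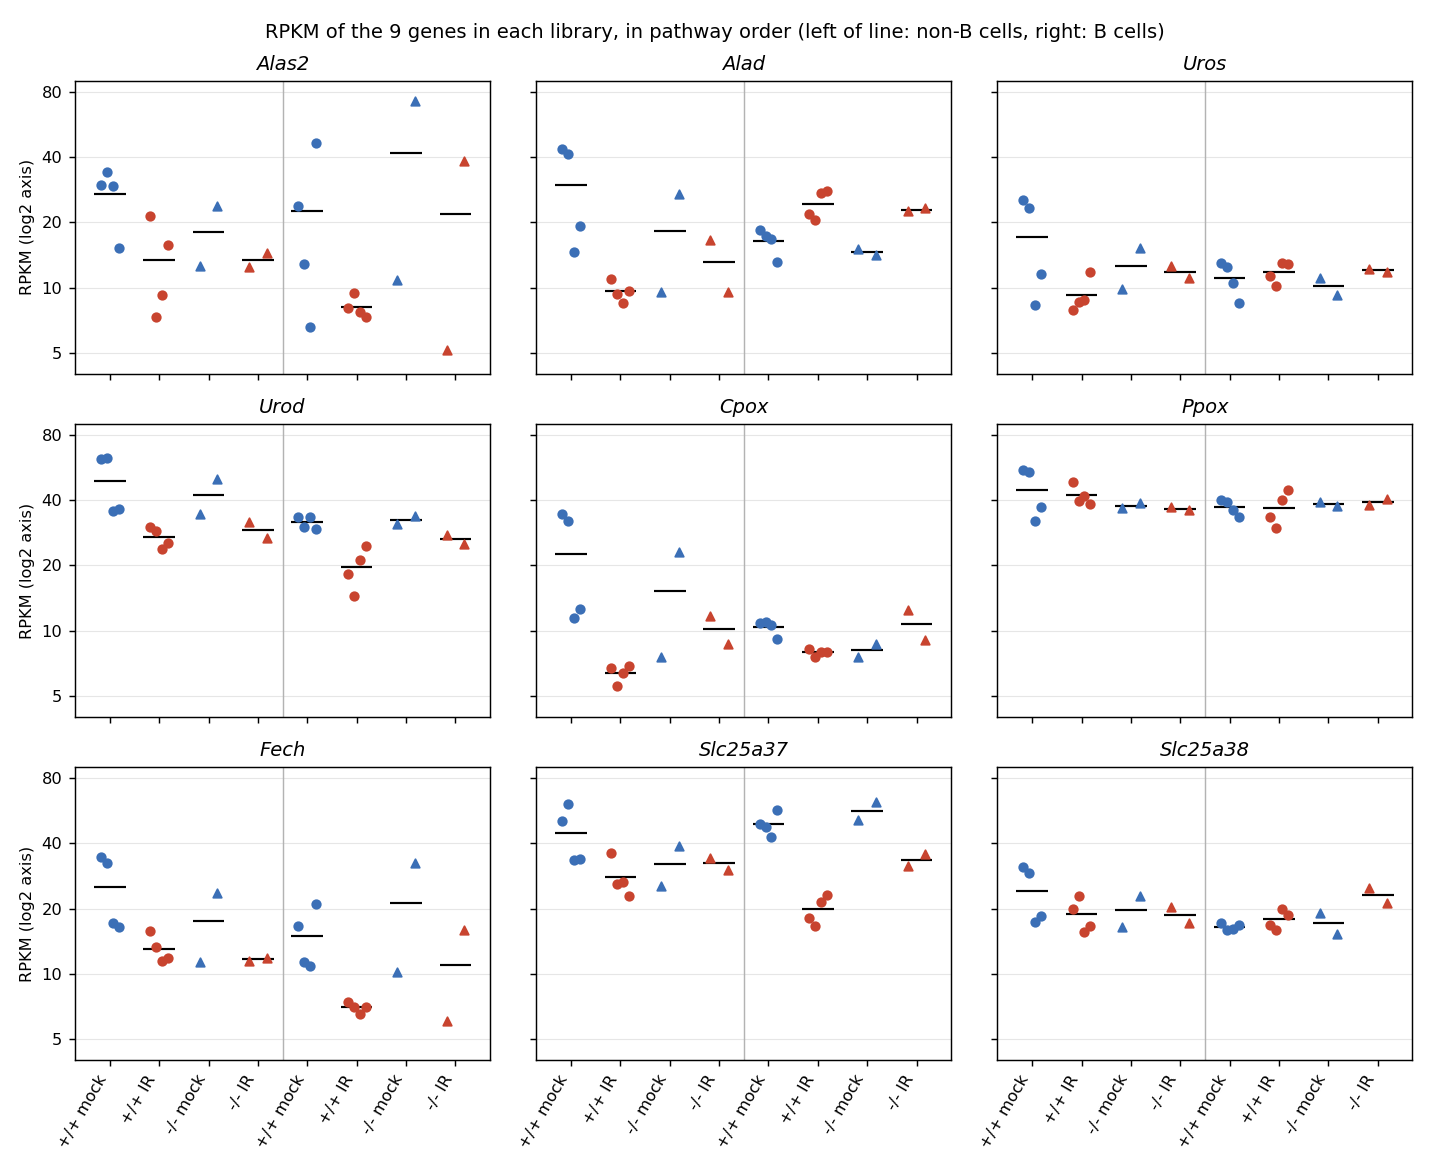
RPKM (vertical, log2 axis) of each gene in each library, in pathway order. Circles are Trp53+/+ and triangles Trp53-/- libraries, blue is mock and red is IR, horizontal bars are group means, and non-B cells are left of the grey line. Alas2 is the most scattered gene (5.15 to 73.09) and Ppox the least (29.72 to 55.32).

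The bases before the start of Alas2, Uros and Cpox are shown because they held words of the kind that GATA factors bind. They were thus chosen by the result of the search. GATA1 and other GATA factors are known to drive red-cell genes. Ppox is shown beside them as the member that varied least. The deposited values come from reads aligned to mm9. On the same build (NCBIM37, GENCODE annotation) Alas2 lies at chrX:146981918-147005181, Uros at chr7:140877926-140901755, Cpox at chr16:58670321-58680504, Ppox at chr1:173206121-173211317, Alad at chr4:62170203-62180952, Urod at chr4:116662570-116667018, Slc25a37 at chr14:69859908-69903160 and Slc25a38 at chr9:120019492-120033622, and the values count reads over the exons of each gene. The promoter table is of a later build and was matched by symbol only. Each run holds the 250 bases before a RefSeq start (build GRCm38.p6), 5′ to 3′ on the gene's strand. The table held 9 starts of 7 members, with no entry for Fech or Slc25a37. Capitals mark the words AGATAA and TGATAA and the words AGATAG and TGATAG on either strand in Alas2, Uros and Cpox, and CCAAT on either strand in Ppox.
Alas2, chrX:150547167-150547416, plus strand: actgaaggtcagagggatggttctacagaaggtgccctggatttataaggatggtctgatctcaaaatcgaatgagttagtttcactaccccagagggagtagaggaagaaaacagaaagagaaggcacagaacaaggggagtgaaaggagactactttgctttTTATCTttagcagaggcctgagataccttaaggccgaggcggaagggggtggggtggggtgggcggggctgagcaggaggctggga
Uros, chr7:133702501-133702750, minus strand: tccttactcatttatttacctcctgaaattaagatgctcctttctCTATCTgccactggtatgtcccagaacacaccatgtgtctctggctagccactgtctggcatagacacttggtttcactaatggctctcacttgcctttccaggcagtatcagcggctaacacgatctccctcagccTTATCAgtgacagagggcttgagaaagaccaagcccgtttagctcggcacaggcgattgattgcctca
Cpox, chr16:58669958-58670207, plus strand: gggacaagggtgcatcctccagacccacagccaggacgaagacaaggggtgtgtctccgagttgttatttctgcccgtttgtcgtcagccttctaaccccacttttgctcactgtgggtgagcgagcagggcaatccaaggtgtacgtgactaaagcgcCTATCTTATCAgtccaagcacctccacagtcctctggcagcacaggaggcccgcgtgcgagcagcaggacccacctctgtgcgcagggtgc
Ppox, chr1:171281187-171281436, minus strand: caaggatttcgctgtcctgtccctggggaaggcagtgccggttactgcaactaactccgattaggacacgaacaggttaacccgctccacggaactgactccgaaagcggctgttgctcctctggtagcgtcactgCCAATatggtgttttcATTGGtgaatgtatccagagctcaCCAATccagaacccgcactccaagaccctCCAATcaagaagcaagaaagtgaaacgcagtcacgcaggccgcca

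The Alas2 window held 1 such GATA word, beginning 86 bases before the start. The Uros window belongs to the downstream of the gene's 2 starts, 6795 bases inside the first, and held a word at 205 and another at 68 bases before it. The window of the first Uros start, which is not printed, held no such word. Cpox held 2 words that share a base, beginning 91 and 86 bases before the start. These were the only 3 of the 9 windows with any of the 4 words, against 26.5% of 32851 promoters of the same length. Ppox held 4 CCAAT words, beginning 114, 98, 74 and 45 bases before its start, and CCAAT was in 4 of the 9 windows against 33.8% of all. CCNCNCCC, the kind of site that Klf1 binds, was in 5 of 9 against 45.9%. The windows of the 2 Alad starts overlap, so the same CCAAT word and CCNCNCCC run were counted in both. The 9 windows are therefore not independent. The p53 decamer was in 0 of 9 against 7.13%. The letters are a description of these windows, and binding was not examined here. The study mapped p53 binding by ChIP-seq in mock and irradiated B and non-B cells, and those data were not used.

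Irradiation of Trp53+/+ non-B cells lowered 4 of the 9 genes, Alad, Urod, Cpox and Fech, and raised none. A gene was called when its adjusted p (limma, Benjamini-Hochberg over all genes tested) was below 0.05 and its log2 of fold change on the log2(RPKM + 0.5) scale was beyond 0.58 in either direction. In this comparison 9.85% of 14018 genes were called. All 9 members had a log2 of fold change below 0, with a median of -0.80 against -0.03 over all genes. In these bulk samples, fewer cells of a type and less RNA per cell cannot be told apart.

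Cpox was at 34.5, 32.3, 11.4 and 12.6 RPKM in the 4 mock libraries and at 6.75, 5.56, 6.39 and 6.85 after IR. Every irradiated library was below every mock library, and mock libraries 1 and 2 were far above 3 and 4. The log2 of fold change was -1.58 (SE 0.39, adjusted p = 0.0187 by limma), a 3.00-fold drop.

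Alad was at 43.7, 41.5, 14.6 and 19.2 RPKM in mock and at 10.97, 9.35, 8.48 and 9.69 after IR. The groups again did not overlap, and the same pair of mock libraries was high. Its log2 of fold change was -1.44 (SE 0.38, limma adjusted p = 0.0246).

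Urod was at 61.9, 62.5, 35.8 and 36.6 RPKM in mock and at 30.2, 29.0, 23.9 and 25.3 after IR, also without overlap. Its log2 of fold change was -0.80 (SE 0.20, limma adjusted p = 0.0177). Fech was at 34.5, 32.5, 17.1 and 16.5 RPKM in mock and at 15.7, 13.3, 11.4 and 11.9 after IR, with a log2 of fold change of -0.85 (SE 0.27) at the edge of the threshold (limma adjusted p = 0.0494). These 4 were also the members whose groups did not overlap, a state shared by 22.1% of all genes tested.

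The other 5 members did not pass. Alas2, the red-cell enzyme, was at 29.9, 34.2, 29.4 and 15.2 RPKM in mock and at 21.4, 7.32, 9.24 and 15.7 after IR, and the ranges overlapped (log2 of fold change -1.05, SE 0.34, limma adjusted p = 0.0527). Slc25a37, the iron carrier, was at 50.8, 60.9, 33.7 and 34.0 RPKM in mock and at 36.0, 25.9, 26.5 and 22.9 after IR. Its log2 of fold change was -0.65 (SE 0.21, limma adjusted p = 0.051), and it passed once the replicate number was taken as a block (adjusted p = 0.0274). For Uros the value was -0.74 (SE 0.31, limma adjusted p = 0.116). The glycine carrier Slc25a38 was at -0.31 (95% interval -0.76 to 0.13) and Ppox at -0.05 (95% interval -0.40 to 0.30).

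The 4 calls depended on which libraries were kept. None of them held without mock libraries 1 and 2, whose removal also made the mock group smaller and the test weaker. With these left out, a choice made after seeing the data, 0 of 9 members were called by limma (4 had an unadjusted p under 0.05), with log2 of fold change at -0.86 for Cpox (adjusted p = 0.108), -0.78 for Alad (0.156), -0.42 for Urod (0.0894) and -0.36 for Fech (0.329). Leaving out mock library 1 or 2, or IR library 2 or 3, alone kept 2, 1, 2 and 1 of the calls. With the share of silent genes above 0 as a covariate, 0 members were called by limma (4 had an unadjusted p under 0.05), at values of -1.70 for Cpox and -1.38 for Alad (adjusted p = 0.115 and 0.167).

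Mock libraries 1 and 2 differed from 3 and 4 in markers of several cell types, those of developing red cells among them. The summed RPKM of 12 red-cell markers was 109.7 to 510.1 in Trp53+/+ mock and 21.6 to 103.0 in irradiated non-B cells, and 7 of the 12 were called lower and 0 higher (median log2 of fold change -2.63). Klf1, a red-cell transcription factor, was at 56.01 and 52.78 RPKM in mock libraries 1 and 2 and at 8.24 and 19.24 in libraries 3 and 4. After IR it was at 0.09 to 2.59, a log2 of fold change of -4.18 (SE 0.73, limma adjusted p = 0.00326). Gata1 was at 43.18, 38.78, 10.95 and 14.11 RPKM in mock and at 1.85 to 4.04 after IR. None of the defining markers Klf1, Gata1 and Epor was at 0 in any library, but the 0.09 RPKM of Klf1 is near the floor. Car1, another of the 12 markers, went from 31.21–60.59 RPKM in Trp53+/+ mock non-B cells to 0.0–1.01 after IR. The summed RPKM of 7 genes of dividing cells went from 98.1–339.8 to 59.8–128.5, with 3 of 7 called lower. In mock libraries 1 and 2 the dividing-cell sum was 339.8 and 316.7, against 98.1 and 116.2 in 3 and 4. The summed RPKM of 6 neutrophil and granulocyte precursor markers split the same way, at 564.9 and 517.4 against 252.8 and 311.6, with Elane, a granule protease of their precursors, at 46.16 and 42.02 against 4.58 and 7.70. T cell markers were lower in that pair, at 338.0 and 355.4 against 485.1 and 488.5, as were NK markers, at 170.1 and 180.1 against 246.1 and 276.8. The part of any of these cell types in the members' values was not tested.

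On the log2 scale the members of Trp53+/+ non-B cells lay closer to the mean of the red-cell markers before IR than after. The difference was 0.09 ± 0.43 (SD, n = 4) for Cpox in mock and 1.32 ± 0.71 in irradiated libraries, 0.50 ± 0.47 and 1.87 ± 0.66 for Alad, and 1.19 ± 0.86 and 3.95 ± 0.64 for Ppox. The mean difference was larger after IR for all 9 members in these Trp53+/+ non-B libraries. The red-cell markers themselves fell in this comparison (median log2 of fold change -2.63), so any gene that fell less than their mean has a larger difference. In Trp53-/- non-B cells the mean difference went from 2.16 to 2.10 for Urod and from 0.84 to 0.81 for Fech. It was larger after IR for all other members there, as for Ppox (2.02 to 2.42).

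**Figure D2:**
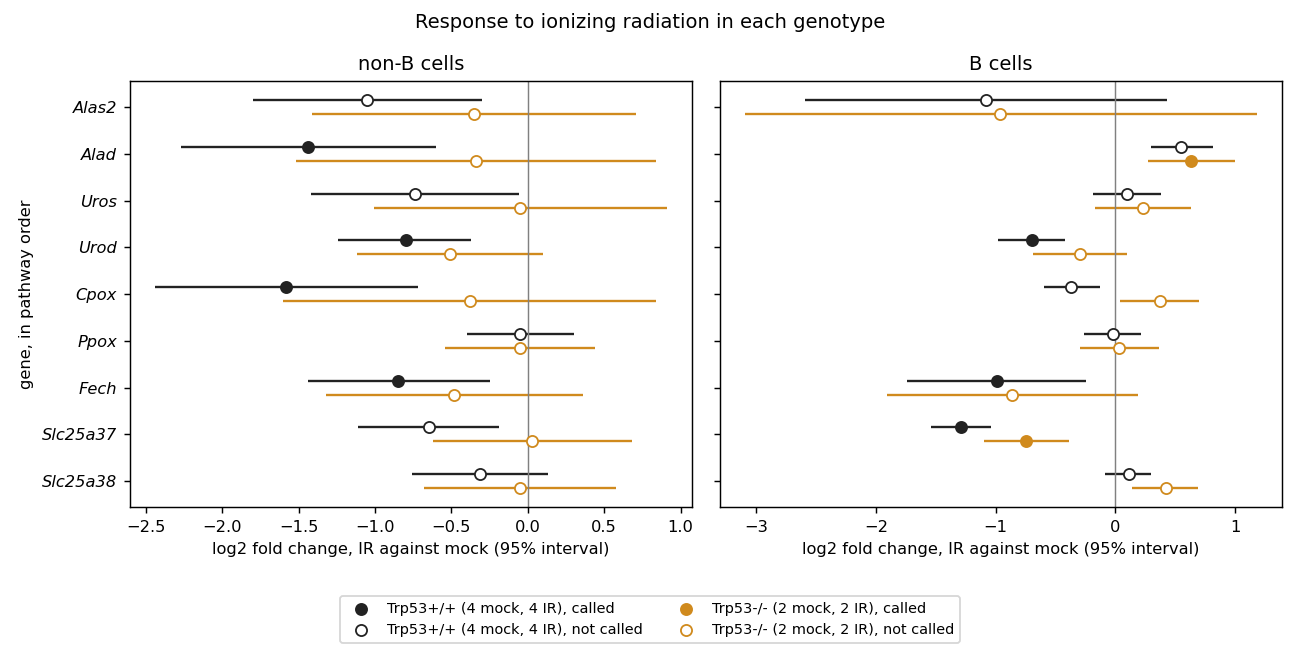
Log2 of fold change of IR against mock (horizontal) for each gene in pathway order, with 95% intervals from limma, in non-B (left) and B cells (right). Black is Trp53+/+ and orange Trp53-/-, and filled points were called. In Trp53+/+ non-B cells all 9 points lie below 0, and in B cells Slc25a37 and Alad lie on opposite sides of 0 in both genotypes.

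In Trp53+/+ B cells, IR lowered Slc25a37, Urod and Fech, while Alad was higher in every irradiated library. These 3 of 9 stand beside 24.7% of 13821 genes called in this comparison, and the median over the members was -0.37 against 0.01 over all genes. Slc25a37 was at 49.0, 47.4, 42.9 and 57.2 RPKM in mock and at 18.1, 16.6, 21.5 and 23.2 after IR. The lowest mock library was well above the highest irradiated one. The log2 of fold change was -1.29 (SE 0.11, limma adjusted p = 1.7e-06), a 2.45-fold drop, and it was called in all 27 alternatives, at -1.45 to -1.09.

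Urod was at 33.5, 30.2, 33.4 and 29.5 RPKM in mock and at 18.2, 14.4, 21.2 and 24.6 after IR. The groups did not overlap, and the log2 of fold change was -0.70 (SE 0.13, limma adjusted p = 0.00061). Fech was at 16.6, 11.3, 10.9 and 21.0 RPKM in mock and at 7.41, 7.05, 6.53 and 6.99 after IR (log2 of fold change -0.99, SE 0.34, limma adjusted p = 0.0279). Leaving out mock library 1, mock library 4 or IR library 3 ended the call of Fech (adjusted p = 0.0667, 0.0816 and 0.0568), and leaving out IR library 2 put Urod at -0.57, inside the fold threshold. With the share of silent genes as a covariate Urod was at -0.39 and Fech had an adjusted p of 0.074, and neither was called.

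Alad was at 18.6, 17.3, 16.8 and 13.2 RPKM in mock B cells and at 21.8, 20.4, 27.4 and 28.0 after IR, with every irradiated library above every mock one. Its adjusted p was 0.00184 (limma) and its log2 of fold change 0.55 (SE 0.12), just under the fold threshold. Cpox was at 10.8, 11.02, 10.6 and 9.15 RPKM in mock and at 8.19, 7.58, 8.01 and 7.96 after IR, also without overlap and also under the threshold (-0.37, SE 0.11, limma adjusted p = 0.0123). In all, 5 members had groups that did not overlap (Alad, Urod, Cpox, Fech and Slc25a37), as did 46.2% of genes tested.

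Alas2 was at 23.9, 12.9, 6.55 and 46.7 RPKM in mock B cells and at 8.09, 9.46, 7.71 and 7.29 after IR. The lowest mock library lay below all 4 irradiated ones, and the value, -1.08 (95% interval -2.59 to 0.43), did not pass. Uros (0.10, interval -0.19 to 0.38), Ppox (-0.02, interval -0.26 to 0.21) and Slc25a38 (0.11, interval -0.09 to 0.30) had intervals that hold 0.

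The red-cell markers were low in B cells and lower after IR, with a sum of 40.1 to 96.7 RPKM in mock and 8.42 to 18.8 in irradiated Trp53+/+ libraries and 10 of 12 called lower. The 7 genes of dividing cells summed to 60.9–143.0 and then 48.0–66.1 RPKM, with 6 called lower. The part of these markers in the fall of Slc25a37 and Fech was not tested.

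In Trp53-/- non-B cells 0 of 9 members were called by limma, where 0.442% of 14018 genes were, and 0 members had an unadjusted p under 0.05. The 2 mock libraries were apart. Alad was at 9.57 and 27.0 RPKM, Cpox at 7.54 and 23.1 and Fech at 11.3 and 23.7, with the sum of red-cell markers at 55.5 and 331.5. After IR, Alad was at 16.6 and 9.58, Cpox at 11.7 and 8.72 and Fech at 11.46 and 11.81 RPKM. The 95% intervals were wide, from -1.60 to 0.84 for Cpox and from -1.52 to 0.84 for Alad. The difference of the IR response between genotypes was called for 0 of 9 members in non-B cells, beside 6.55% of all genes, and 0 had an unadjusted p under 0.05. It was -1.20 for Cpox (interval -2.69 to 0.29), -1.09 for Alad (interval -2.54 to 0.35) and -0.68 for Slc25a37 (interval -1.48 to 0.11). All 9 differences were at or below 0, with a median of -0.68 against -0.02 over all genes. With 0 of 9 called and 2 libraries in each Trp53-/- group, the calls in Trp53+/+ cells are not shown to depend on the genotype.

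In Trp53-/- B cells, Slc25a37 fell and Alad rose, 2 of 9 members beside 24.3% of 13821 genes. Slc25a37 was at 51.4 and 62.0 RPKM in mock and at 31.4 and 35.6 after IR (log2 of fold change -0.75, SE 0.16, limma adjusted p = 0.00292). Both irradiated libraries were below both mock ones but above all 4 irradiated Trp53+/+ libraries. The difference of the response between genotypes was -0.54 (SE 0.20) and did not pass (limma adjusted p = 0.0762). Alad was at 15.03 and 14.2 RPKM in mock and at 22.6 and 23.3 after IR (0.63, SE 0.17, limma adjusted p = 0.0091), and the difference from the Trp53+/+ response was -0.08 (interval -0.52 to 0.36). Without mock library 2 the adjusted p of Alad was 0.0566.

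Cpox was the only 1 of the 9 whose response differed between genotypes in B cells, beside 12% of all genes. It was at 7.55 and 8.65 RPKM in Trp53-/- mock and at 12.5 and 9.01 after IR, so that it lay above mock in the Trp53-/- libraries and below mock in the Trp53+/+ ones. The difference was -0.74 (SE 0.19, limma adjusted p = 0.0165), made of -0.37 in Trp53+/+ and 0.37 in Trp53-/- cells. In the same comparison 3 of the 7 genes of dividing cells were called lower (median -0.98), as were 2 of the 6 other genes of heme synthesis (median -0.43) and 1 of the 12 red-cell markers (median -1.30). The dividing-cell sum was 75.0 and 75.5 RPKM in Trp53-/- mock and 82.6 and 93.3 in irradiated B libraries, and Cpox was at r = 0.75 with the mean of these genes over the 12 B libraries. Their part in the Cpox difference was not tested. Without Trp53-/- mock library 1 or IR library 1 it was -0.65 or -0.52 and did not pass (adjusted p = 0.0929 and 0.0912). Slc25a38 had an adjusted p of 0.0196 in Trp53-/- B cells at a log2 of fold change of 0.42, under the fold threshold.

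Libraries 2 of the Trp53-/- B cells stood apart. Alas2 was at 10.8 and 73.1 RPKM in mock and at 5.15 and 38.6 after IR, and Fech at 10.2 and 32.3 and then 6.04 and 15.8. Without both libraries 2, a choice made after seeing the data, Slc25a37 was still called (-0.70, limma adjusted p = 0.0426), Cpox was called higher (0.69, adjusted p = 0.0159) and Alad was not (0.57, adjusted p = 0.119), while the genotype difference of Cpox was -1.05 (adjusted p = 0.00899).

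In mock cells 0 of 9 members differed by genotype by limma in either cell type, beside 0.0428% of genes in non-B and 0.0506% in B cells. The member values lay between -0.71 (Alad) and -0.18 (Urod) in non-B cells, with 0 at an unadjusted p under 0.05. In B cells they lay between -0.34 (Cpox, the only 1 with an unadjusted p under 0.05) and 0.67 (Alas2).

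Between cell types, Alad, Cpox and Fech were higher in Trp53+/+ mock non-B than B cells, 3 of 9 beside 24.6% of 14598 genes. Their log2 differences were 0.70 (SE 0.26, limma adjusted p = 0.0432), 0.92 (SE 0.27, adjusted p = 0.0113) and 0.70 (SE 0.23, adjusted p = 0.0241). Urod (0.58) and Slc25a38 (0.48) passed on the adjusted p alone (0.0174 and 0.0275), and Slc25a37 was at -0.17 (interval -0.55 to 0.21). The call of Alad ended without any 1 of the 4 B cell mock libraries (adjusted p = 0.0526 to 0.113). Without non-B mock libraries 1 and 2 the differences were 0.04 for Alad, 0.20 for Cpox and 0.22 for Fech, and 0 members were called by limma (1 had an unadjusted p under 0.05). Both fractions may come from the same spleens, and the main fit between cell types had no term for this.

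The response to IR differed between the cell types for Alad and Cpox, 2 of 9 beside 18.8% of genes. Alad fell in non-B cells and was higher after IR in B cells, and the non-B response minus the B response was -1.99 (SE 0.37, limma adjusted p = 0.00096), and this was called in all 30 alternatives, at -2.27 to -1.33. It was -1.33 without non-B mock libraries 1 and 2. For Cpox the difference was -1.22 (SE 0.38, limma adjusted p = 0.0244), and -0.50 without those libraries, inside the fold threshold. For Urod it was -0.10 (interval -0.65 to 0.44) and for Fech 0.15 (interval -0.55 to 0.85). Slc25a37 was at 0.64 (limma adjusted p = 0.0705) and at 0.99 (adjusted p = 0.00295) without the same pair of libraries.

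**Figure D3:**
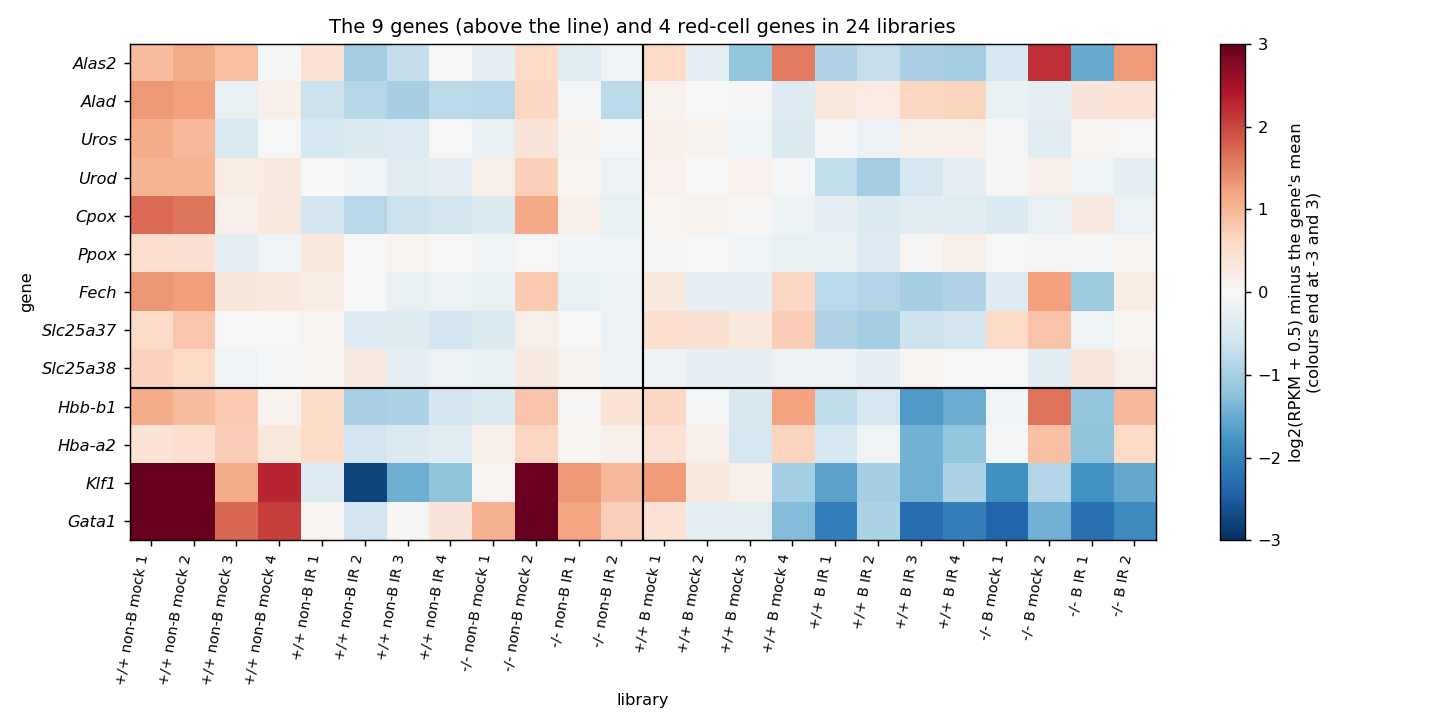
Each cell is log2(RPKM + 0.5) of a gene (row) in a library (column) minus that gene's mean over the 24 libraries, red above and blue below. The 9 genes are above the line, with Hbb-b1, Hba-a2, Klf1 and Gata1 below it. Alad, Uros and Cpox are highest in Trp53+/+ non-B mock libraries 1 and 2, where Klf1 and Gata1 are highest, while Alas2 is highest in Trp53-/- B mock library 2, where Hbb-b1 is at 62.97 RPKM and Klf1 at 1.70.

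Over the 24 libraries the members formed no single pattern. Alas2 and Fech, the first and last enzymes, went together (Pearson r of log2(RPKM + 0.5) = 0.86), and Alad, Uros and Cpox, from the middle of the chain, went together at 0.75 to 0.84. Alas2 was at 0.11 with Alad and 0.13 with Uros. Urod was the member in between, at 0.79 with both Cpox and Fech. All libraries of a cell type share their preparation, and these correlations are given as a description.

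The genes most like Alas2 among 14679 searched were Hbb-b1 (r = 0.93) and Hbb-bs (0.90), beta globins, and Bpgm (0.87), a red-cell glycolytic enzyme. Among those most like Fech were Ube2l6 (0.92) and Trim10 (0.91). For Alad they were Rrm1 (0.95), a subunit of ribonucleotide reductase, Wdr60 (0.93) and Slc43a1 (0.92). For Cpox they were Pla2g4c, Dtl and Tmem56 (each 0.94), and for Uros Atad5, Wdr60 and Ccp110 (each 0.89). Urod was most like Casc5, Cdk1, the kinase that starts mitosis, and Hist1h2bh (each 0.93), and Slc25a38 most like E2f1 (0.89), Pask (0.88) and Cdc45 (0.87). The closest genes to Slc25a37 were Trak2 and Smim5 (0.92) and Asb1 (0.91), and to Ppox Tst (0.84), 1810055G02Rik and Ncaph (0.78). Globin reads are shared among near-identical copies, so single globin genes are uncertain.

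Within cell types, Alas2 went with the mean of the globins Hbb-b1 and Hba-a2 in both, at Pearson r = 0.92 over 12 non-B and 0.92 over 12 B libraries. Fech was at 0.73 and 0.93. Alad was at 0.72 with the globins in non-B libraries but at -0.74 in B libraries, and at 0.96 and -0.53 with the mean of the red-cell markers. Slc25a37 was at 0.94 with the red-cell markers in non-B and 0.63 in B libraries. With the mean of the 7 genes of dividing cells Slc25a37 was as high, at 0.94 and 0.66, as were Alad and Urod in non-B libraries, each at 0.97. For these members the correlations do not set red-cell genes apart from genes of dividing cells. With the same dividing-cell mean, Alas2 was at 0.76 in non-B and 0.18 in B libraries, and Fech at 0.95 and 0.41. Alas2 was high in 4 B cell libraries: Trp53-/- mock 2 (73.1 RPKM), Trp53+/+ mock 4 (46.7), Trp53-/- IR 2 (38.6) and Trp53+/+ mock 1 (23.9). In the first 3 of these Gata1 was at 0.78, 0.93 and 0.45 RPKM and Klf1 at 1.70, 1.49 and 0.91, against 4.14 and 9.32 in the last. These levels were far below the 56.01 RPKM of Klf1 in Trp53+/+ non-B mock library 1, where Alas2 was at 29.9.

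**Figure D4:**
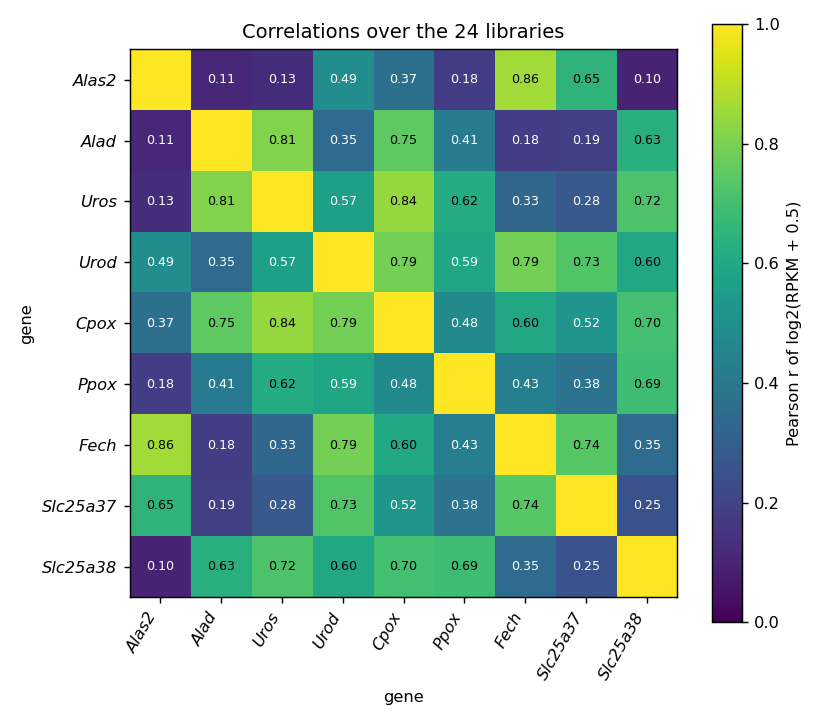
Pearson r of log2(RPKM + 0.5) between each pair of the 9 genes over 24 libraries, printed in each square. Alas2 with Fech (0.86) and Alad with Uros (0.81) and Cpox (0.75) are high, and Alas2 with Alad (0.11) is low.

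Of the 6 other genes of heme synthesis, 1 was called lower and 0 higher in Trp53+/+ non-B cells after IR. That was Abcb6, a mitochondrial porphyrin transporter (log2 of fold change -1.34, SE 0.38, limma adjusted p = 0.0329). In Trp53+/+ B cells 0 of 6 were called, with Abcb6 at 0.48 (limma adjusted p = 0.00629), and in Trp53-/- B cells 3 of 6 rose, Abcb6 from 4.57–4.96 to 12.34–14.53 RPKM (1.4, SE 0.18, limma adjusted p = 6.5e-05) and Alas1, the general form of the first enzyme, at 0.60 (SE 0.15, limma adjusted p = 0.00728) among them.

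Of 13 genes of iron uptake and mitochondrial iron use, 6 were lower and 0 higher in Trp53+/+ non-B cells after IR, with a median of -0.57. Among those with the largest change were Tfr2 (-3.95, SE 0.56, 0.00 to 0.25 RPKM left after IR), Steap3 (-2.13, SE 0.48), Tfrc (-1.68, SE 0.30) and Slc11a2 (-0.91, SE 0.13). Tfrc, the transferrin receptor that brings iron into the cell, went from 23.37–57.86 to 9.66–13.08 RPKM (limma adjusted p = 0.00372). In Trp53+/+ B cells 2 of 13 were lower, Tfr2 (-0.82) and Slc11a2, an iron transporter (-0.73). Tfr2 was near the floor there, at 0.61 to 1.31 RPKM in mock and 0.04 to 0.45 after IR. In Trp53-/- B cells 1 of 13 was higher, Slc25a39 (0.83).

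The 4 genes that sense iron and heme had no call in either Trp53+/+ comparison. Of 9 genes of heme breakdown, export and iron storage, Blvrb, a biliverdin reductase, was lower in both (-1.20 and -0.89, limma adjusted p = 0.03 and 0.00029) and 8 were not called. Of a list of 5 genes, globins and the globin chaperone Ahsp, 2 were found in the tables. Of these, Hbb-b1 was lower in Trp53+/+ non-B (-1.23) and B cells (-1.45). The beta globin Hbb-bs was in the tables but not on the list. In Trp53-/- non-B cells 0 genes of these lists were called.

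Other cell types were present in both fractions. The 7 B cell markers summed to 298.7–473.4 RPKM in Trp53+/+ non-B mock libraries against 845.2–987.8 in B libraries, and the 7 T cell markers to 338.0–488.5 against 60.7–67.9. After IR, 2 of 7 B cell markers, 1 of 7 T cell markers and 0 of 5 NK markers were called lower in Trp53+/+ non-B cells, and 1 of 7 macrophage and monocyte markers was called higher. No call was made among 6 neutrophil and 6 megakaryocyte markers there.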

How the data were processed

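RNA from splenic B and non-B cells of Trp53+/+ and Trp53-/- mice was depleted of ribosomal RNA and made into TruSeq v2 libraries, which keep no strand. Per the study's methods and the submitters' processing notes, reads were aligned to mm9 with TopHat2 (2.0.8 in the notes), 1 of each set of duplicated reads was kept, and reads were counted per gene with featureCounts (1.4.5). The deposited values are RPKM, scaled by the authors to reads on exons. Keeping 1 duplicate caps high values: the top gene had 1.46 to 1.92 estimated reads per base, and the members at most 0.68.

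From these, log2(RPKM + 0.5) was fitted with limma (3.58.1, R 4.3.3), with a trended prior, in all groups of a cell type (all 16 Trp53+/+ libraries between cell types), for genes above 1 RPKM in at least 1 Trp53+/+ library. Fold changes on this scale understate those of low genes. A count test could not be the main test since the files used here hold RPKM. Depth was estimated from gene lengths (GENCODE, NCBIM37), found for 91.1% of genes. Only 58.5% to 70.5% of low values were within 0.1 of a whole read, so reads were not recovered. The fit was tested on simulated data in which all libraries varied alike, so that test does not cover libraries that stand apart as a pair.

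Alas2 shares 12.9% of its exonic bases with Apex2 and Ppox 17.5% with B4galt3, both on the opposite strand, so those reads cannot be told apart. Same-numbered mock and IR libraries of Trp53+/+ non-B cells deviated together (r = 0.16 to 0.32 over 4 pairs), and those of B cells less (0.02 to 0.09). Between the non-B and B fractions, same-numbered Trp53+/+ libraries had r = -0.05 to 0.35 in mock and -0.1 to 0.29 after IR. The numbers come from the labels.

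All 9 members were reported. Of other lists, counts and at most 5 called genes with the largest change in Trp53+/+ non-B cells, and the 4 defining markers of a cell type, were named. For each member the 3 most correlated other genes were named. Some genes that this rule would name are not reported here. Genes outside that rule (Abcb6, Alas1 and Slc25a39 in Trp53-/- B cells) were chosen after their values were seen. The members and lists were chosen with earlier results of these data known. Of the lists, Flvcr1 was found as Mfsd7b, and Hba-a1, Hbb-b2 and Ahsp were not used here. Alternatives covered pseudocount, filter, scaling, replicate block, thresholds, prior, a covariate and libraries left out.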

Additional observations from a re-analysis of the deposited data

Results flagged for a closer look

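The difference of the IR response between Trp53+/+ and Trp53-/- B cells passed the test for Cpox, at -0.74 on the log2 scale (limma adjusted p = 0.0165), with -0.37 in Trp53+/+ and 0.37 in Trp53-/- cells.

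The difference of the IR response between Trp53+/+ non-B and B cells passed for Alad, at -1.99 (limma adjusted p = 0.00096), and for Cpox, at -1.22 (limma adjusted p = 0.0244). Alad was lower after IR in all 4 non-B and higher in all 4 B libraries than in any Trp53+/+ mock library of the same cell type.

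No library of a Trp53+/+ group of 4 was far enough from the others, for any of the 9 genes over 36 gene and group pairs, to pass Dixon's test, although chance alone passes about 1 in 20. Mock libraries 1 and 2 of non-B cells stand apart as a pair, which that test does not detect.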

How the results depend on the processing

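Of 2466 values of single members under 41 alternative settings, 2330 kept their side of the threshold, 85 lost the call, 51 gained it and 0 of those called changed direction. Of 274 counts of called members, 240 stayed within 1.5 times the main count.

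In Trp53+/+ non-B cells after IR (4 called), the count was 2 at a log2 of fold change beyond 1, 1 with no filter on low values, and 0 with the silent gene share as a covariate, with Trp53+/+ replicates 3 and 4 only and with mock libraries 1 and 2 left out. In Trp53+/+ B cells (3 called) it was 5 with no fold threshold and 1 beyond 1. In Trp53-/- B cells (2 called) it was 0 beyond 1 and 1 with quantile normalization. The genotype difference in B cells (1 called) gave 0 beyond 1, 3 with replicates 1 and 2 only and 0 with replicates 3 and 4 only, and that in non-B cells (0 called) gave 1, Uros, with replicates 1 and 2 only. Between the cell types in mock (3 called), the count was 5 with no fold threshold, 0 beyond 1, 1 with no filter, 6 with replicates 1 and 2 only, 0 with replicates 3 and 4 only and 0 with non-B mock libraries 1 and 2 left out. The cell type difference of the response (2 called) gave 1 with no filter. With no filter more genes were tested. The cause of the other changes was not tested.

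Leaving out each library in turn gave 1 to 6 calls in Trp53+/+ non-B cells, 2 to 4 in Trp53+/+ B cells, 0 in Trp53-/- non-B cells, 1 to 4 in Trp53-/- B cells, 0 for the genotype difference in non-B cells, 0 to 2 in B cells, 0 for genotype in mock in either cell type, 1 to 6 between cell types in mock and 2 to 3 for the cell type difference of the response. Where this left 1 library in a group, it was assumed to vary like the other groups.

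With the replicate block, 5 members were called in Trp53+/+ non-B cells, Slc25a37 being added, and it changed no other call. Same-numbered Trp53-/- non-B libraries had r = -0.25, and with their numbers crossed, chosen after seeing the data, the counts were 5 for Trp53+/+ and 0 for Trp53-/- cells.

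Depth was lowest in Trp53+/+ irradiated B cells, and 2 libraries per Trp53-/- group limit every comparison with that genotype.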
